A study of Mus musculus with 15 samples.

Results

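Cholesterol synthesis and its control by the transcription factor SREBP2 were followed through 27 genes, chosen by name, of the 23420 gene symbols in each count file. The listed genes cover the enzymes from acetyl-CoA to cholesterol, the sterol sensor around SREBP2, and proteins that move sterol inside cells. RNA came from primary ileal organoids of C57BL/6 mice, grown from intestinal crypts in Matrigel at passage 2 and exposed for 24 hours in DMEM with 0.2% BSA. All 5 groups of 3 libraries, lettered a to c, shared that strain, passage and medium. The vehicle group had no bile acid mix. The other 4 groups had mixes (pools) modelled on human (H) or mouse (M) bile acids with a 10% or 90% share of 12α-hydroxylated bile acids (12HBA), named H10, H90, M10 and M90. The labels used here give neither the single bile acids of each mix nor their dose, and nothing in them states if replicate libraries derive from different mice or wells. The p-values therefore measure the spread between these libraries, which may be technical.

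Cholesterol is built from acetyl-CoA through mevalonate, isoprenoid diphosphates, squalene and lanosterol. When membranes of the endoplasmic reticulum hold enough sterol, the Insig proteins keep the escort Scap and its cargo SREBP2 there; when sterol falls, Scap carries SREBP2 to the Golgi, where it is cleaved, and the released part switches on most genes of the pathway, Insig1 among them. Bile acids are made from cholesterol in the liver, help to absorb dietary sterol in the gut, and are taken back up in the ileum.

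SREBP2 is known to act at promoters together with the factors NF-Y and Sp1, so the RefSeq promoter windows of the listed genes (GRCm38.p6, 250 bases before to 50 bases from the annotated start on) were searched for 3 sets of letters on both strands. The searched letters were TCACNCCAC, a form of the SREBP element, the NF-Y box CCAAT and the Sp1 box GGGCGG, which do not overlap one another in the stretches printed here. A window was at hand for 22 of the 27 genes and not for Fdps, Fdft1, Sqle, Npc1 and Stard4. The NF-Y box was in a window of 20 of the 22 genes (90.9%). It was in 41.1% of all 27025 genes with a window and 43.1% of the 9800 tested genes with a window. The Sp1 box was also in a window of 20 of the 22, against 38.2% of all genes and 67.6% of tested genes with a window. The SREBP element in this spelling was in 2 of the 22, against 1.44% of all genes and 1.53% of tested genes with a window. The 2 were Hmgcs1 (TCACCCCAC, positions -137 to -129 from the start) and Stard3 (TCACTCCAC, positions -211 to -203). These are matches of letters and say nothing of binding.

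Of the 7 genes whose transcripts moved in every pool, the promoters of 4 are shown as examples: Hmgcs1, which carries all 3 kinds of match, Insig1 and Insig2, the anchors of the sterol sensor, and Acat2, which fell. Sequences run 5′ to 3′ on the strand of the gene, with every match of the 3 sets of letters in capitals, read from either strand (ATTGG is CCAAT and CCGCCC is GGGCGG on the other strand).
Hmgcs1, chr13:119690101-119690350, plus strand: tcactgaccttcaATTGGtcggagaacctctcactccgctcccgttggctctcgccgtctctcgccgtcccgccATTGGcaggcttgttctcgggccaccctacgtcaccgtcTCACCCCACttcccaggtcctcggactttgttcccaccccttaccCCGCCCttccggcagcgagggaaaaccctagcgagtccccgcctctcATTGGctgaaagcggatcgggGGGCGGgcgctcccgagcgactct
Insig1, chr5:28071162-28071362, plus strand: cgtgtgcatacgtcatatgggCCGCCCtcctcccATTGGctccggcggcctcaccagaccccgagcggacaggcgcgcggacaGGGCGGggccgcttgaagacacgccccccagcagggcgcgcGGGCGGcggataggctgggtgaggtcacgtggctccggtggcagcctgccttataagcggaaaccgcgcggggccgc
Insig2, chr1:121332590-121332839, minus strand, the first of 3 annotated starts: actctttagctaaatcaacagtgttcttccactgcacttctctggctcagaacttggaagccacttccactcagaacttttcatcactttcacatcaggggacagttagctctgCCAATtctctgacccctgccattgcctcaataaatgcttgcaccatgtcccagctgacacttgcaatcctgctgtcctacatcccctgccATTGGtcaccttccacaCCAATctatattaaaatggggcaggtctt
Acat2, chr17:12960750-12960975, minus strand: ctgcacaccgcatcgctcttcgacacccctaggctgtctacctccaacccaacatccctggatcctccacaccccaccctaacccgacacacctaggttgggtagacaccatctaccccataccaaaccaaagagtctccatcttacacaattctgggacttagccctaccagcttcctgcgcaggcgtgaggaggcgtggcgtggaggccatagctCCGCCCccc
Hmgcs1 shows 3 NF-Y boxes before its start, Insig1 shows 1 NF-Y box and 3 Sp1 boxes, and the Insig2 stretch has 3 NF-Y boxes and no Sp1 box. Acat2 has no NF-Y box in its window and 1 Sp1 box near its start.

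Library totals ran from 11245807 to 28989526 counts, and all 27 genes passed the filter on low counts that left 13159 genes for testing. Raw counts of the listed genes ran from 292 (Ggps1) to 30796 (Hmgcs1) per library, and 10 of the 27 genes share exon bases with another annotated gene. The libraries fell into 2 sets that the groups do not explain. Mup20, a liver gene, stood at 23.0 to 35.9 CPM (counts scaled to the same library total) in 7 libraries (all of vehicle and H10, and H90 a). In the remaining 8, which are H90 b, H90 c and every library of both M pools, it stood at 0.356 to 0.583 CPM. H10 minus vehicle and M90 minus M10 therefore lie within 1 set, the other contrasts cross the sets, and only H90 holds both. Rn45s, a ribosomal precursor RNA, was at 14143 CPM in H90 a and at 1739 to 3215 CPM elsewhere. The summed CPM of 15 proliferation markers, of which none was at 0 in every library, was 1715 to 1829 in vehicle. It was 1107 to 1267 in H90, 334 to 357 in H10, 319 to 345 in M90 and 132 to 141 in M10. The 14 enterocyte markers summed to 17060 to 20050 CPM in vehicle and to 37250 to 38510 CPM in M10, while 4 immune markers summed to at most 2.48 CPM in any library. In such bulk RNA, fewer cells of a type and less RNA per cell cannot be told apart, and the part of these shifts in the results below was not tested.

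Averaged over the pools, Hmgcs1, the enzymes from squalene to lanosterol, several later enzymes, Insig1, Insig2 and Npc1 rose, while Acat2 at the first step, Idi1, Ebp and Tmem97 fell. On the mean of the 4 pools minus vehicle, 14 of 27 genes rose (51.9%) and 8 fell (29.6%), against 27.7% and 30.3% of all tested genes (edgeR quasi-likelihood test, adjusted p under 0.05 over 13159 genes). The median log2 change of the 27 was 0.19, against -0.01 for all tested genes. By role, 4 of 8 genes of the mevalonate and isoprenoid arm rose and 2 fell, all 3 enzymes from squalene to lanosterol rose, 4 of 7 enzymes from lanosterol to cholesterol rose and 2 fell, 2 of 4 sterol sensing genes rose and 1 fell, and 1 of 5 transport genes rose and 3 fell. Scaled by library size alone, the Fdps and Sqle calls ended (log2 0.04 and 0.06, adjusted p 0.388 and 0.171). With a term for the 2 library sets 11 rose and 4 fell; the calls of Mvd, Idi1, Fdps, Tm7sf2, Nsdhl, Scap and Stard4 ended (adjusted p 0.05 to 0.809). Without vehicle b the Nsdhl call ended (0.0967), and without vehicle a or b that of Stard4 (0.12 and 0.211).

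Each pool was then set against vehicle. In H10, 14 rose and 7 fell, against 24.0% and 24.5% of tested genes. In H90, 6 rose and 4 fell, against 11.7% and 9.86%. In M10, 13 rose and 7 fell, against 31.2% and 33.3%, and with library size as the only scaling 7 rose and 12 fell. In M90, 14 rose and 9 fell, against 26.2% and 28.5%. These 4 contrasts share the vehicle libraries. Of the 27 genes, 13 rose in each of H10, M10 and M90 (Hmgcs1, Sc4mol, Pmvk, Fdps, Fdft1, Sqle, Lss, Cyp51, Tm7sf2, Hsd17b7, Insig1, Insig2 and Npc1), and 5 of these (Hmgcs1, Sc4mol, Cyp51, Insig1 and Insig2) rose in H90 too. Scaled by library size alone, the median of all tested genes moved by -0.264 in M10, -0.151 in M90 and -0.13 in H10. Fdps then turned to -0.03 in M10 and Sqle to -0.04 in M90, and calls ended for Pmvk, Fdft1, Sqle, Tm7sf2 and Hsd17b7 in M10, for Fdps and Hsd17b7 in M90 and for Tm7sf2 in H10. Acat2 and Npc2 fell in all 4 pools, and Ebp, Scap and Tmem97 fell in H10, M10 and M90. No gene rose in 1 pool and fell in another. How many of all tested genes were called alike in several pools was not counted. These joint patterns are therefore not shown to be particular to the listed genes. A term for the library set, which only the H90 libraries can estimate, left 2 higher and 2 lower calls in H90, ending those of Sc4mol, Mvd, Idi1, Cyp51, Insig1 and Stard4 (adjusted p 0.0525 to 0.443). In M90 it left 7 higher and 3 lower calls, ending those of Pmvk, Mvd, Idi1, Fdps, Fdft1, Sqle, Lss, Tm7sf2, Nsdhl, Srebf2, Scap, Stard4 and Npc2 (0.0807 to 0.695). In M10 it ended those of Mvk, Pmvk, Fdps, Tm7sf2 and Dhcr7 (0.106 to 0.28). With that term, 1069 of all tested genes were called in H90, 5809 in M10 and 3958 in M90. Without it, 1542 rose and 1298 fell in H90, 4103 and 4379 in M10, and 3451 and 3748 in M90. Calls thus ended across all tested genes too, not in the listed genes alone.

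**Figure D1:**
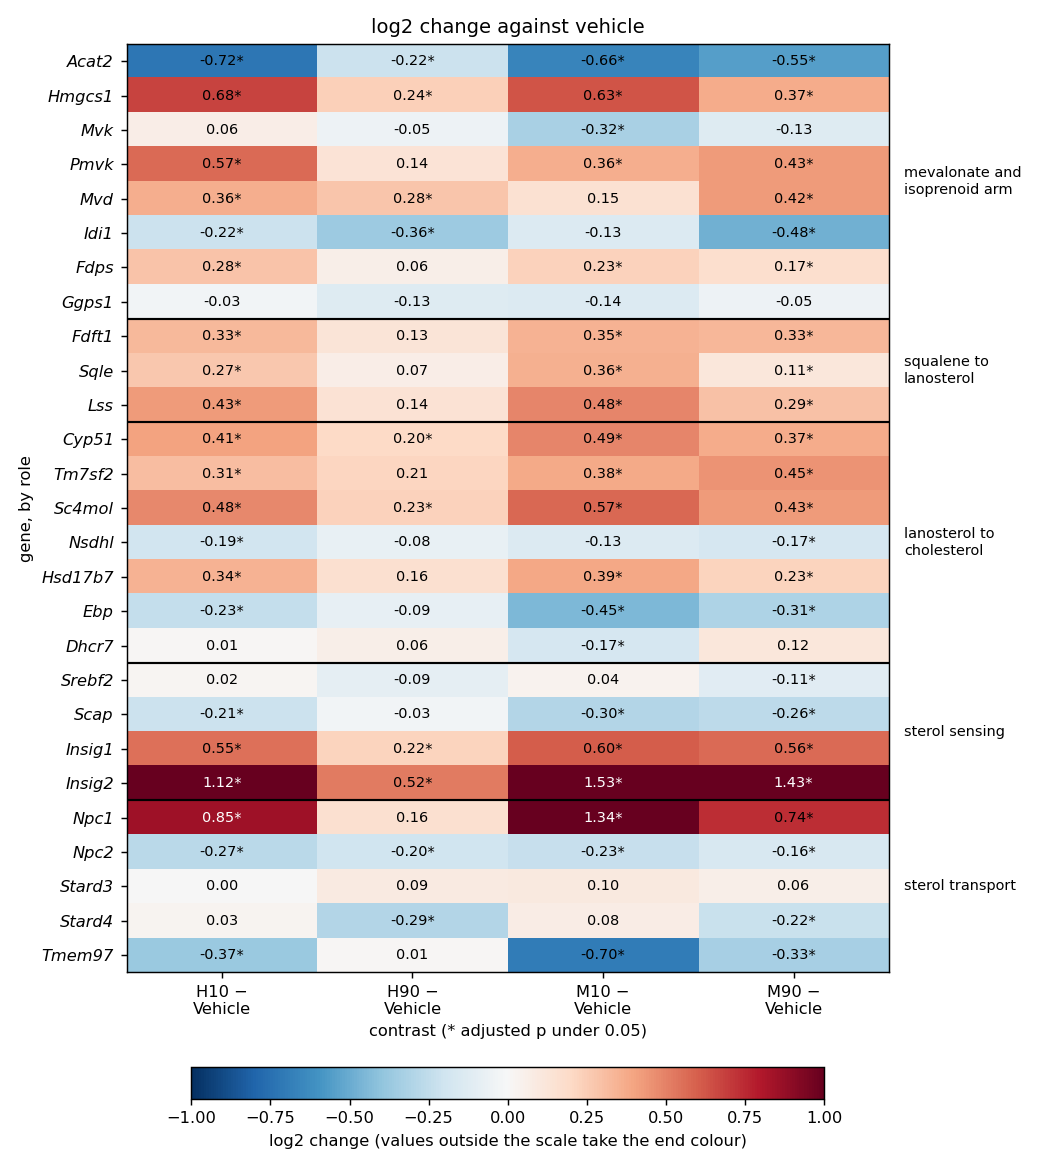
Log2 change of each of the 27 genes (rows, by role) in each of the 4 pools against vehicle (columns), with an asterisk at adjusted p under 0.05. Insig2 and Npc1 carry the highest values, up to 1.53 and 1.34 in M10, and Acat2 and Tmem97 the lowest, down to -0.72 in H10 and -0.70 in M10.

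**Figure D2:**
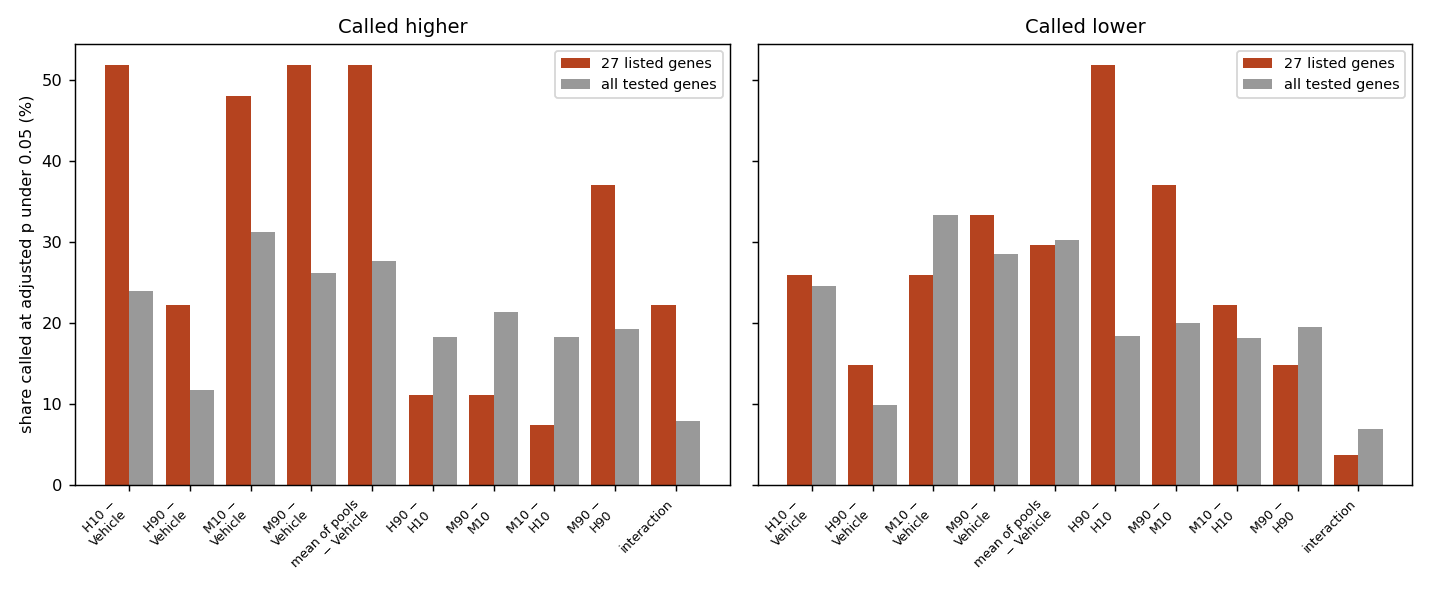
Share of the 27 genes (red bars) and of all 13159 tested genes (grey bars) called higher (left) or lower (right) in each contrast, in percent. Against vehicle the share called higher is 51.9% in H10 and M90, 48.1% in M10 and 22.2% in H90, each above the grey bar beside it, while the shares called lower are closer to the background.

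The first enzymes of the pathway went in opposite directions. Acat2, the cytosolic thiolase that joins acetyl-CoA units (not the sterol-esterifying enzyme of the same protein name, whose gene is Soat2), lies at chr17:12942890-12960747 (GRCm38). It stood at 87.6, 88.5 and 88.8 CPM in vehicle a to c, 55.0, 49.4 and 56.1 in H10, 67.2, 80.0 and 81.3 in H90, 52.8, 60.9 and 54.2 in M10, and 61.3, 62.0 and 57.3 in M90. Every treated library lay below every vehicle library, and H90 lay nearest to vehicle. The log2 change was -0.72 (SE 0.0757, adjusted p 2.83e-10) in H10 and -0.22 (SE 0.0751, adjusted p 0.0324) in H90. For M10 it was -0.66 (SE 0.0752), and for M90 -0.55 (SE 0.0751). The H90 call ended when H90 a or any 1 of the vehicle libraries was left out (adjusted p 0.069 to 0.238).

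Hmgcs1, the cytosolic HMG-CoA synthase at chr13:119690379-119708260, takes the product of Acat2 one step further and moved the other way. It stood at 754, 779 and 726 CPM in vehicle, 1193, 1207 and 1207 in H10, 881, 917 and 872 in H90, 1163, 1155 and 1170.2 in M10, and 981, 979 and 963 in M90. The ranges of the 5 groups did not overlap, with H10 and M10 close together at the top. The rise was 1.60-fold in H10 (log2 0.68, 95% interval 0.597 to 0.754, adjusted p 2.23e-17), 1.54-fold in M10, 1.29-fold in M90 and 1.18-fold in H90.

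The kinases and the decarboxylase that turn mevalonate into an isoprenoid unit did not move as a block. Pmvk, phosphomevalonate kinase, stood at 74.1, 89.7 and 82.2 CPM in vehicle, 126, 111 and 128 in H10, 85.6, 88.2 and 98.6 in H90, 109, 114 and 93.7 in M10, and 117, 109.7 and 106 in M90. Its H10, M10 and M90 libraries all lay above vehicle (log2 0.57, 0.36 and 0.43), and H90 overlapped vehicle (0.14, adjusted p 0.217). Scaled by library size alone, the M10 value was 0.10 (adjusted p 0.228). Mvd, mevalonate diphosphate decarboxylase, stood at 104, 121 and 125 CPM in vehicle, 156, 145 and 149.7 in H10, 129, 139 and 159 in H90, 125, 133 and 132 in M10, and 169.7, 155 and 147 in M90. It rose in H10 (log2 0.36), H90 (0.28) and M90 (0.42), and missed the threshold in M10 (0.15, adjusted p 0.0511). Mvk, mevalonate kinase, stood at 63.2, 70.2 and 73.0 CPM in vehicle, 74.99, 62.1 and 78.5 in H10, 69.0, 60.6 and 70.1 in H90, 51.4, 54.5 and 59.5 in M10, and 59.4, 65.9 and 63.3 in M90. Only in M10 did Mvk pass the test among the pools, where it fell (log2 -0.32, adjusted p 0.000783).

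The isoprenoid steps after them differed as well. Idi1, the isomerase of isopentenyl diphosphate, stood at 59.5, 54.4 and 53.1 CPM in vehicle, 48.8, 49.9 and 45.1 in H10, 46.5, 42.8 and 40.0 in H90, 53.9, 48.0 and 50.001 in M10, and 38.0, 40.1 and 41.2 in M90. It fell in H10 (log2 -0.22), H90 (-0.36) and M90 (-0.48), and its H10 call ended without vehicle a or H10 c (adjusted p 0.133 and 0.132). Fdps, farnesyl diphosphate synthase, rose from 272 ± 13.2 CPM in vehicle to 330.4 ± 8.45 in H10, 318 ± 10.6 in M10 and 305 ± 21.5 in M90 (SD, n = 3 libraries each); with library size as the only scaling it stood at -0.03 in M10 and at 0.02 in M90 (adjusted p 0.792), and in M90 its call ended without M90 a (adjusted p 0.0769). Ggps1, which makes geranylgeranyl diphosphate off the sterol line, ranged from 24.2 to 34.0 CPM over all libraries and passed no test against vehicle.

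All 3 enzymes from squalene to lanosterol rose in H10, M10 and M90, by less than Hmgcs1. Between the M pools they parted. From M10 to M90, Sqle (log2 -0.245) and Lss (-0.193) fell, while Fdft1 stood at -0.017 (adjusted p 0.827). Fdft1, squalene synthase, rose from 266 ± 6.05 CPM in vehicle to 333 ± 8.22 in H10, 338 ± 4.77 in M10 and 334 ± 22.1 in M90 (SD, n = 3). Sqle, squalene epoxidase, a known control point of the pathway, rose from 293 ± 2.74 CPM to 355 ± 4.58 in H10, 376 ± 23.4 in M10 and 317 ± 14.97 in M90. Its M90 change was small (log2 0.11, adjusted p 0.0422), stood at -0.04 with library size as the only scaling, and lost its call when any 1 of vehicle a, b or c, H10 a or c, or M90 a was left out (adjusted p 0.0523 to 0.251). Lss, lanosterol synthase, stood at 159, 181 and 162 CPM in vehicle, 224, 222 and 231 in H10, 179.8, 169.8 and 206 in H90, 231, 231 and 242 in M10, and 219.9, 204 and 192 in M90. Every H10, M10 and M90 library of Lss lay above every vehicle library, with log2 changes of 0.43, 0.48 and 0.29. Scaled by library size alone, the M10 values were 0.08 for Fdft1 (adjusted p 0.133) and 0.09 for Sqle (0.0655). None of the 3 passed the test in H90, where the log2 changes were 0.07 to 0.14. Fdft1 and Lss share exon bases with Ctsb and 4930483K19Rik on the opposite strand, and the strand setting of the counting is not given in the sources used here.

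Among the later enzymes Sc4mol and Cyp51 rose in all 4 pools. Sc4mol (current symbol Msmo1, chr8:64718139-64733792) is an oxidase in the removal of sterol methyl groups. It stood at 309, 335 and 324 CPM in vehicle, 448, 436 and 470.0 in H10, 371, 394 and 374 in H90, 478, 489 and 476 in M10, and 464, 429 and 409 in M90. Cyp51, lanosterol demethylase at chr5:4081145-4104746, stood at 422, 444 and 435 CPM in vehicle, 565, 577 and 582 in H10, 489, 514 and 487 in H90, 621, 609.6 and 593 in M10, and 598, 579 and 504 in M90. For both genes all 12 treated libraries lay above the 3 vehicle libraries, with log2 changes of 0.48, 0.23, 0.57 and 0.43 for Sc4mol and 0.41, 0.20, 0.49 and 0.37 for Cyp51 in H10, H90, M10 and M90. With the library set as a term the H90 calls of both ended (adjusted p 0.0526 for Sc4mol and 0.117 for Cyp51).

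Tm7sf2, a sterol reductase that follows Cyp51, stood at 31.9, 33.9 and 40.5 CPM in vehicle, 43.6, 43.7 and 44.9 in H10, 38.7, 41.9 and 43.1 in H90, 43.0, 45.3 and 50.5 in M10, and 50.1, 51.8 and 43.6 in M90. It rose in H10 (log2 0.31), M10 (0.38) and M90 (0.45), and with library size as the only scaling it stood at 0.18 in H10 (adjusted p 0.0959) and 0.12 in M10 (0.254). Tm7sf2 shares exon bases on the same strand with Vps51, so its reads may be split between the genes. Hsd17b7, a ketosteroid reductase of sterol demethylation, rose from 84.9 ± 4.03 CPM in vehicle to 108 ± 3.85 in H10, 111 ± 4.42 in M10 and 99.3 ± 4.19 in M90 (SD, n = 3). With library size as the only scaling its log2 change was 0.13 in M10 (adjusted p 0.0697) and 0.07 in M90 (0.309).

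Nsdhl, Ebp and Dhcr7 of the same arm did not follow them. Nsdhl, the dehydrogenase that works with Sc4mol, fell in H10 (log2 -0.19) and M90 (-0.17), both small changes. The H10 call ended without vehicle b or H10 b (adjusted p 0.0546 and 0.0572), and the M90 call without vehicle b, M90 b or M90 c (0.0757 to 0.141). Ebp, a sterol isomerase, stood at 73.4, 73.6 and 81.9 CPM in vehicle, 62.2, 67.7 and 64.5 in H10, 66.6, 75.9 and 73.7 in H90, 54.3, 57.2 and 56.6 in M10, and 61.4, 65.3 and 58.0 in M90. It fell in H10 (log2 -0.23, adjusted p 0.0563 without vehicle c), M10 (-0.45) and M90 (-0.31). Dhcr7, which makes cholesterol in the last step of one branch, stood at 135, 149 and 153 CPM in vehicle, 147, 142 and 151 in H10, 150.0, 148 and 158 in H90, 126, 125 and 137 in M10, and 162, 159 and 153 in M90. Against vehicle it passed the test in M10 alone of the 4 pools (log2 -0.17, adjusted p 0.00733), where its range overlapped that of vehicle.

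Summed over the 18 enzymes, from Acat2 to Dhcr7, the TMM-scaled level was 3316 to 3523 CPM in vehicle. It was 3668 to 3834 CPM in H90, 3882 to 4250 in M90, 4365 to 4491 in H10 and 4394 to 4423 in M10. The sum weighs genes with many reads most, so it follows Hmgcs1, Cyp51 and Sc4mol. On plain library totals, a scaling added after the data were seen, it was 3623 to 3802 in vehicle, 3890 to 4027 in H90, 3820 to 4109 in M90, 4333 to 4432 in H10 and 3966 to 3998 in M10. All treated libraries lay above vehicle on either scaling, while the order of H90, M10 and M90 depended on it. The proliferation sum of the same libraries, given above on plain totals, differed between the groups too, and its part in the enzyme levels was not tested.

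**Figure D3:**
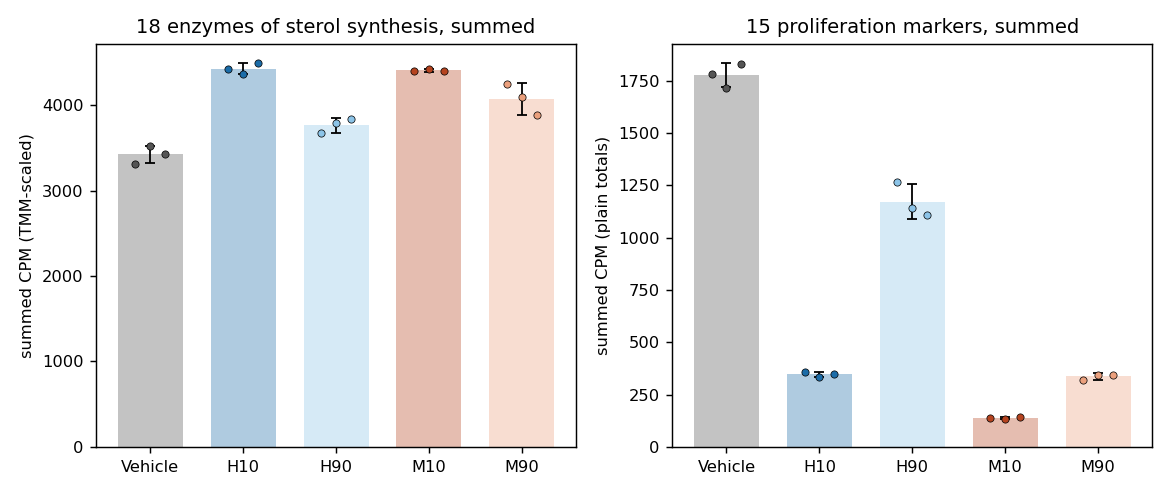
Summed CPM of the 18 sterol synthesis enzymes (left, TMM-scaled) and of 15 proliferation markers (right, plain totals) by group. Points are libraries, bars are means and whiskers are SD (n = 3); the enzyme sum is 3316 to 3523 in vehicle and 4365 to 4491 in H10, while the proliferation sum is 1715 to 1829 and 334 to 357.

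Within the sterol sensor the widest change was that of Insig2, which was also the largest among the listed genes on the mean of the pools. There the log2 change was 1.152 for Insig2, 0.485 for Insig1, -0.2 for Scap and -0.037 for Srebf2, which was not called. Insig2, an anchor that holds Scap in the endoplasmic reticulum, lies at chr1:121304353-121332589 and stood at 35.9, 36.0 and 33.7 CPM in vehicle, 79.5, 75.8 and 74.6 in H10, 47.0, 52.4 and 52.8 in H90, 99.0, 110.3 and 95.9 in M10, and 100.5, 90.8 and 94.5 in M90. All treated libraries lay above vehicle, H90 lay below the other pools, and M10 and M90 overlapped. The rise in H10 was 1.12 on the log2 scale (95% interval 0.973 to 1.267, adjusted p 7.69e-16), and the level was 2.89-fold that of vehicle in M10, 2.70-fold in M90 and 1.44-fold in H90. With the library set as a term these log2 changes were 1.12, 0.42, 1.37 and 1.27, each past the threshold.

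Insig1, the other anchor and a known SREBP2 target at chr5:28071363-28078662, stood at 233, 252 and 231 CPM in vehicle, 362, 329 and 358 in H10, 274, 279.6 and 281 in H90, 366, 368 and 353 in M10, and 405, 354 and 301 in M90. It too was higher in all 12 treated libraries than in vehicle, with log2 changes of 0.55, 0.22, 0.60 and 0.56 in H10, H90, M10 and M90. The H90 call (adjusted p 0.0285) ended without any 1 of vehicle a or c or H90 a, b or c (0.0532 to 0.136), and with the library set as a term (0.311).

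Srebf2, which encodes SREBP2 itself, changed little against vehicle. It stood at 404, 406 and 406 CPM in vehicle, 425, 403 and 407 in H10, 388, 369 and 385 in H90, 420.2, 413 and 413 in M10, and 405, 371 and 349.7 in M90. The log2 changes were 0.02 (95% interval -0.071 to 0.114) in H10, -0.09 (-0.185 to 0.001) in H90 and 0.04 (-0.057 to 0.128) in M10. In M90 it fell by 0.11 on the log2 scale (adjusted p 0.0356), a call that ended with RLE scaling (0.0855) and in DESeq2 (0.0798), and without any 1 of vehicle a, b or c or M90 b or c (0.059 to 0.283). Scap stood at 76.9, 67.8 and 74.3 CPM in vehicle, 63.9, 65.8 and 58.9 in H10, 70.0, 68.3 and 76.5 in H90, 58.3, 65.0 and 54.5 in M10, and 61.0, 60.7 and 60.6 in M90. It fell in H10 (log2 -0.21, with adjusted p 0.0822 and 0.105 without vehicle a and without H10 c), M10 (-0.30) and M90 (-0.26).

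**Figure D4:**
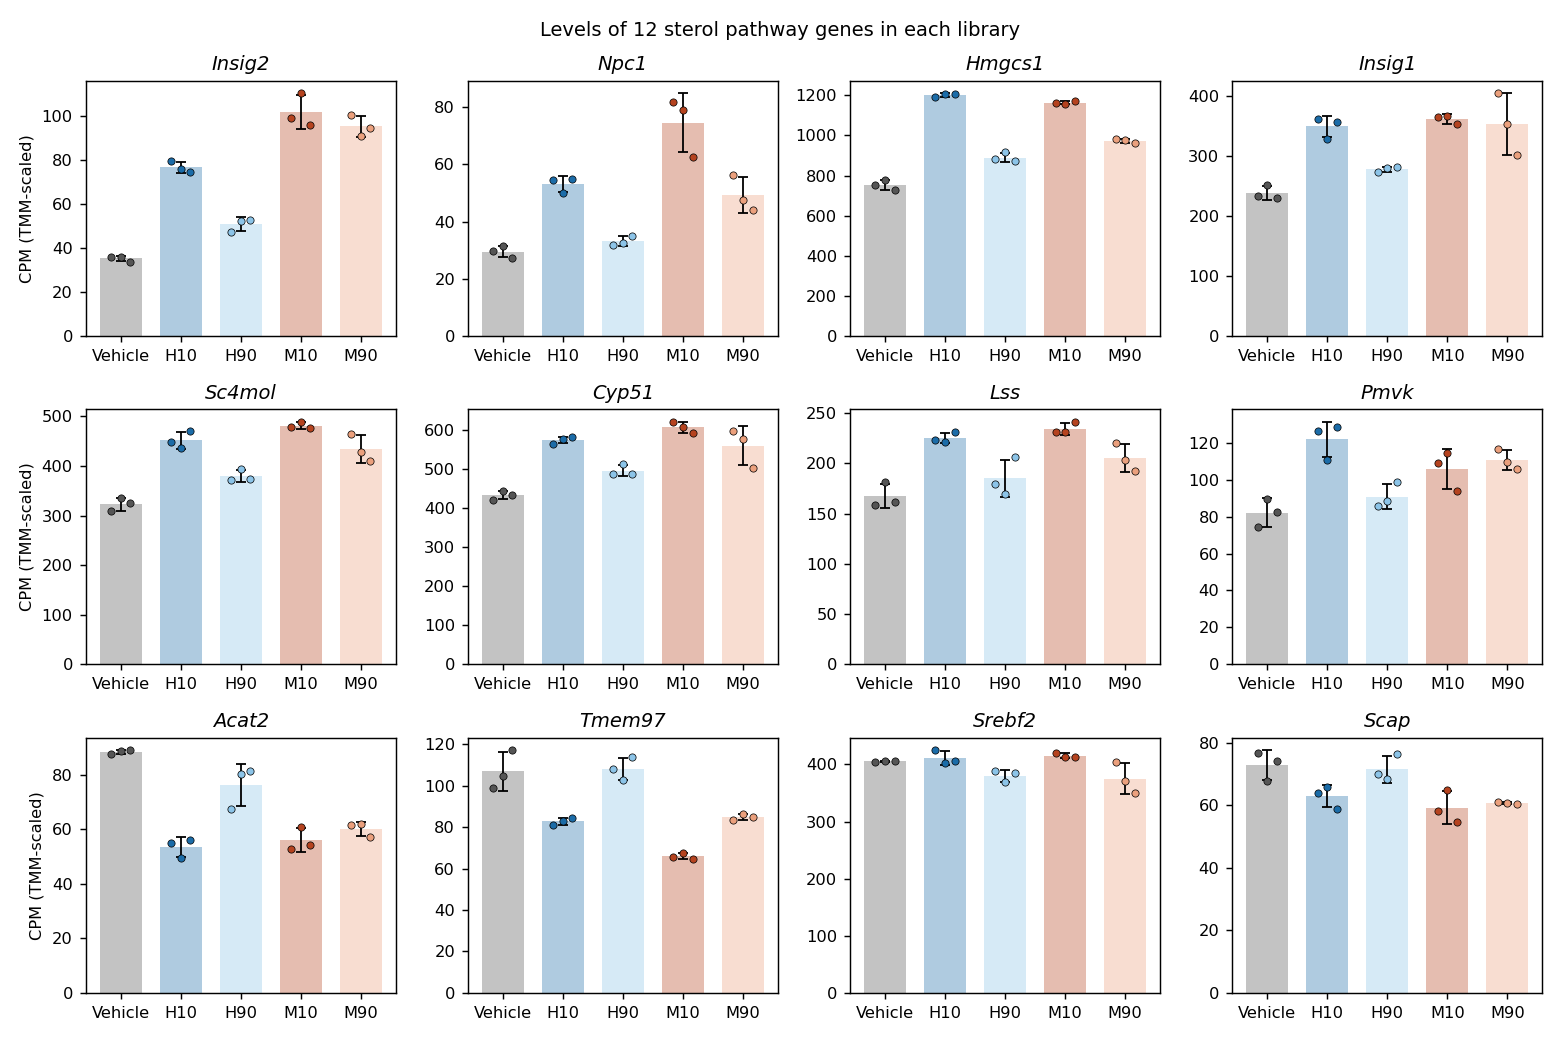
TMM-scaled CPM of 12 of the genes in each library, by group. Points are libraries, bars are means and whiskers are SD (n = 3); Insig2 runs from 33.7 to 36.0 in vehicle and from 95.9 to 110.3 in M10, Acat2 and Tmem97 are lower in H10, M10 and M90 than in vehicle, and Srebf2 stays between 349.7 and 425.

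Of the transport genes Npc1 moved most. Npc1, the membrane protein that exports cholesterol from lysosomes, stood at 29.8, 31.4 and 27.4 CPM in vehicle, 54.5, 49.96 and 55.0 in H10, 32.0, 32.4 and 35.1 in H90, 81.9, 79.1 and 62.7 in M10, and 56.3, 47.4 and 44.2 in M90. It rose 1.80-fold in H10 (log2 0.85, SE 0.0960, adjusted p 1.86e-09), 2.53-fold in M10 and 1.67-fold in M90; in H90 the log2 change was 0.16 (95% interval -0.041 to 0.362, adjusted p 0.271). Its partner Npc2, the soluble protein that hands cholesterol to it, fell from 191 ± 9.91 CPM in vehicle to 159 ± 4.61 in H10 and 163 ± 10.4 in M10 (SD, n = 3). At the 90% share it was 166 ± 10.9 in H90 and 171 ± 5.12 in M90. The Npc2 calls ended without H90 b in H90 (adjusted p 0.0507) and without any 1 of vehicle b, vehicle c or M90 c in M90 (0.0523 to 0.0647). Npc1 shares exon bases with Rmc1 on the opposite strand.

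Tmem97, a sterol-responsive membrane protein known to bind Npc1 protein, stood at 99.0, 105 and 117 CPM in vehicle, 81.2, 83.1 and 84.4 in H10, 108, 103 and 114 in H90, 65.7, 67.7 and 64.9 in M10, and 83.6, 86.6 and 85.1 in M90. H90 overlapped vehicle (log2 0.01), and the other pools lay below it (-0.37 in H10, -0.70 in M10 and -0.33 in M90). Stard4, a soluble sterol carrier and known SREBP2 target, stood at 362, 370.5 and 333 CPM in vehicle, 372, 361 and 353 in H10, 306, 298 and 264 in H90, 366, 365 and 394 in M10, and 316, 300.4 and 299 in M90. It fell in both pools with a 90% share (log2 -0.29 in H90 and -0.22 in M90), and its changes in H10 (0.03) and M10 (0.08) did not pass. Stard3, a sterol carrier of late endosomes, ranged from 44.6 to 56.0 CPM over all libraries and passed no test against vehicle.

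The share of 12HBA was compared within each species model. In H90 minus H10, 3 genes rose and 14 fell, against 18.2% and 18.4% of tested genes. In M90 minus M10, 3 rose and 10 fell, against 21.3% and 20.0%; with library size as the only scaling 8 rose and 5 fell, and in H90 minus H10 7 rose and 11 fell. Without M90 c, 6 fell in M90 minus M10. Npc1 was lower at the 90% share in both models (log2 -0.69, SE 0.0969, adjusted p 3.91e-07 in H; -0.60, SE 0.0922, adjusted p 1.54e-06 in M), as were Hmgcs1 (-0.43 and -0.26) and Stard4 (-0.32 and -0.30). Tmem97 was higher at 90% in both (0.38 and 0.36). Srebf2 was slightly lower at 90% in both (-0.11, adjusted p 0.0489 in H, and -0.15, adjusted p 0.00862 in M). Its H call ended with RLE scaling (0.0523) and without any 1 of 10 libraries (0.0525 to 0.193). Its M call ended without M90 c (0.118). With library size as the only scaling both ended (-0.02 and -0.04, adjusted p 0.749 and 0.544). Insig2 was lower in H90 than in H10 (-0.60, adjusted p 1.38e-08), while its change in the M pair was -0.10 (95% interval -0.234 to 0.042). Acat2 (0.50) and Pmvk (-0.43) likewise passed in the H pair only, with 0.11 and 0.07 in the M pair. Idi1 (-0.35) and Dhcr7 (0.29) passed in the M pair, with -0.14 and 0.05 in the H pair.

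The interaction, the change with share in the M model minus that in the H model, tested these differences. It passed for 7 genes, 6 positive and 1 negative, against 7.85% and 6.92% of tested genes. Its log2 values were 0.50 for Insig2 (SE 0.0989, adjusted p 0.000342), 0.49 for Pmvk (SE 0.107, adjusted p 0.00128), 0.35 for Mvd (SE 0.0975, adjusted p 0.0112) and -0.40 for Acat2 (SE 0.108, adjusted p 0.00942). Hmgcs1 (0.18, adjusted p 0.0205), Dhcr7 (0.23, adjusted p 0.0391) and Insig1 (0.29, adjusted p 0.0488) passed more narrowly. For Idi1 it was -0.20 (95% interval -0.438 to 0.029), so the change with share was not shown to differ between models there. Leaving out M90 b ended the Hmgcs1 call (adjusted p 0.0514) and brought the positive calls to 3. The Dhcr7 call ended without any 1 of 8 libraries (all of the H and M pools but H10 b, H90 c, M10 c and M90 c; adjusted p 0.0674 to 0.104). The Insig1 call ended without any 1 of 12 libraries, the exceptions being vehicle b, H10 b and M90 c (0.0593 to 0.107), and its value was 0.19 without M90 a. With the library set as a term the Acat2 value was -0.22 (adjusted p 0.268), that of Insig1 0.32 (0.126) and that of Dhcr7 0.25 (0.0885), and no negative call was left.

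The species models were compared at each share. At the 10% share, M10 minus H10, 2 genes rose and 6 fell, against 18.2% and 18.1% of tested genes; with library size as the only scaling 2 rose and 10 fell. Npc1 (log2 0.49, SE 0.0921, adjusted p 5.07e-05) and Insig2 (0.41, SE 0.0688, adjusted p 8.79e-06) were higher in M10, and Mvk (-0.39), Tmem97 (-0.33) and Ebp (-0.21) were lower. All H10 libraries are in 1 library set and all M10 libraries in the other. With the set as a term 0 genes rose and 2 fell (edgeR). Over all tested genes 2025 were called with that term, against 2394 higher and 2385 lower without it. Insig2 then stood at 0.25 (adjusted p 0.19), Npc1 at 0.41 (0.111), Mvk at -0.30 (0.18) and Tmem97 at -0.33 (0.0515). Leaving out H10 b or M10 a ended the Ebp call (0.0918 and 0.0737). At the 90% share, M90 minus H90, 10 rose and 4 fell, against 19.2% and 19.5%; with library size as the only scaling 3 rose and 7 fell. Insig2 was 1.88-fold higher in M90 (log2 0.91, SE 0.0713, adjusted p 4.38e-13), Npc1 1.49-fold (0.58) and Insig1 1.27-fold (0.34), while Acat2 (-0.33), Tmem97 (-0.34), Scap (-0.23) and Ebp (-0.23) were lower. The calls of Scap and Ebp ended without H90 c (adjusted p 0.0596) and without H90 b or M90 c (0.0753 and 0.0808). Within this contrast the set term kept 8 higher and 4 lower calls, with Insig2 at 0.86. With the term 4532 of all tested genes were called, against 2532 higher and 2570 lower without it.

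**Figure D5:**
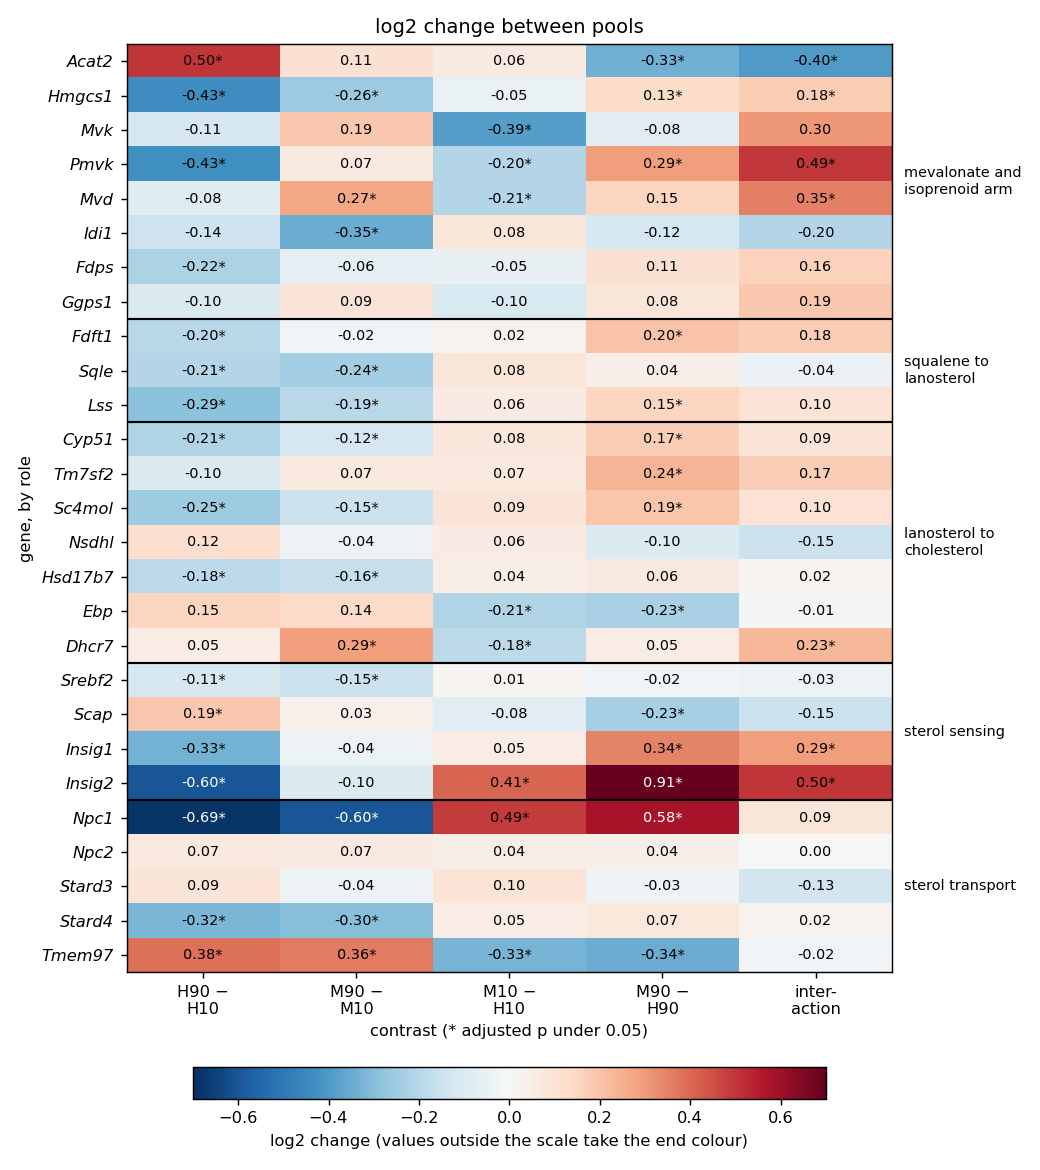
Log2 change of the 27 genes (rows, by role) between pools and in the interaction (columns), with an asterisk at adjusted p under 0.05. Npc1 is lower at the 90% share in both models (-0.69 and -0.60), Tmem97 is higher (0.38 and 0.36), and Insig2 is higher in the M pools at either share (0.41 and 0.91).

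Ordered by TMM-scaled group mean, H90 was the pool nearest to vehicle for 19 of the 27 genes, and M10 was the group with the highest mean for 12. On plain library totals these counts were 16 and 1. There vehicle had the highest mean for 11 genes and H10 for 10, while on TMM scaling vehicle had it for 7. None of these counts was made over all tested genes. Against vehicle, 21.6% of all tested genes were called in H90, 48.5% in H10, 54.7% in M90 and 64.5% in M10. H90 thus had the fewest calls and M10 the most among all tested genes too. For Insig2 the order was M10, M90, H10, H90 and vehicle, with M10 and M90 not differing beyond their spread and in the other order on plain totals. For Npc1 it was M10, H10, M90, H90 and vehicle, where H10 and M90 overlapped and H90 did not pass the test against vehicle. For Hmgcs1 it was H10, M10, M90, H90 and vehicle, with H10 and M10 not told apart by the test (log2 -0.05, adjusted p 0.35).

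Genes around the pathway came from 5 lists that hold none of the 27. Their counts are on the mean of the pools, where 27.7% of all tested genes rose and 30.3% fell. There 4 of 10 genes for SREBP processing and reductase degradation rose and 3 fell, with Erlin2 at 0.25, Rnf145 at -0.45 and Mbtps1, the first protease that cuts SREBPs, at -0.27 on the log2 scale. Of 7 genes on a list named for acetyl-CoA supply 5 rose and 2 fell, and supply itself was not measured. Malic enzyme Me1 (1.55) and citrate synthase Cs (0.59) rose, and ATP citrate lyase Acly (-0.69) and the acetoacetyl-CoA synthetase Aacs (-0.51) fell. Of 12 genes of isoprenoid branches 4 rose and 5 fell, among them Rce1, a protease for prenylated proteins (0.61), and Pdss1, which builds the ubiquinone tail (-1.09). The list medians were -0.06, 0.21 and -0.08, against -0.01 for all tested genes.

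Of 18 genes for sterol uptake, esterification and transport, 8 rose and 5 fell, against the same 27.7% and 30.3%, with a median of 0.13. Lysosomal acid lipase Lipa (log2 1.47), the lipoprotein receptor Vldlr (1.24) and the sterol esterifying enzyme Soat2 (1.07) rose, and its relative Soat1 fell (-0.67). Of 11 genes around SREBP1 and fatty acid synthesis, 3 rose and 5 fell, with a median of -0.08. Fatty acid desaturases split there, with Scd1 at 1.34, Fads2 at -1.67 and Fads1 at -2.11, and the phosphatidate phosphatase Lpin1 fell by 0.96. Srebf1, which encodes SREBP1, stood at -0.08 (adjusted p 0.0544).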

How the data were processed

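Poly-A RNA of 15 libraries was sequenced, and the authors deposited raw read counts per gene symbol, with no normalization, per the file values. Tools named in the submitters' processing notes are STAR 2.5.2b, featureCounts 1.5.0-p3 and bcl2fastq 2.17, and the build is mm10 (GRCm38); annotation and strand setting are not given in the sources used here. Per the labels, organoids were split after 10 days and treated on day 14.

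Genes passing filterByExpr (13159) were TMM-scaled and tested with edgeR 4.0.16 (R 4.3.3; robust quasi-likelihood F test, two-sided, 5 group means, 10 residual degrees of freedom, common dispersion 0.00776). A call is a p-value under 0.05 after Benjamini-Hochberg adjustment across the tested genes of a contrast, and "rose" and "fell" are used of calls. Standard errors and 95% intervals come from the F statistic. CPM are TMM-scaled, but marker sums, Mup20 and Rn45s use plain totals. Positions are from GENCODE vM21.

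The genes, lists and the split at 10 CPM of Mup20 were chosen with earlier results of these data known. Values per library are printed for the 10 largest changes on the mean of the pools, for Srebf2, Scap, Insig1 and Insig2, and for the 5 largest calls in each of the 4 contrasts between pools; Mvd and Lss were added after their values were seen. Of each pathway list up to 4 genes of smallest adjusted p are named, and Srebf1 was added; a gene the rule picks is not reported here. Alternatives were RLE and library size scaling, 2 filters, limma-voom (limma 3.58.1), DESeq2 1.42.0, the contrast's groups alone, a replicate block, a library set term and leaving out each library.

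Replicate letters did not pair the libraries: over 30 pairs of the same letter, correlations of residuals ran from -0.0237 to 0.0829. Replicates of a group differed beyond counting noise (chi-square per degree of freedom 4.3 to 17.3). The highest values, 17.3 and 15.3, came from pairs with H90 a, and the next was 10.2.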

Additional observations from a re-analysis of the deposited data

Results flagged for a closer look

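For 7 genes the change with the 12HBA share differed between the M and H models by the interaction test in edgeR, 6 with a positive and 1 with a negative value, against 7.85% and 6.92% of all tested genes. The log2 interaction was 0.179 for Hmgcs1, -0.397 for Acat2, 0.493 for Pmvk, 0.355 for Mvd, 0.235 for Dhcr7, 0.295 for Insig1 and 0.503 for Insig2. Insig2 fell by 0.60 from H10 to H90 and stood at -0.10 from M10 to M90, and Acat2 rose by 0.50 and stood at 0.11. Pmvk fell by 0.43 and stood at 0.07. Mvd stood at -0.08 in the H pair and rose by 0.27 in the M pair, and Dhcr7 stood at 0.05 and rose by 0.29. Hmgcs1 fell in both pairs, by 0.43 and 0.26, and Insig1 fell by 0.33 in the H pair and stood at -0.04 in the M pair. H90 a lies in another library set than H90 b and c. With a term for the set the calls of Acat2 (-0.222, adjusted p 0.268), Insig1 (0.319, 0.126) and Dhcr7 (0.254, 0.0885) ended. The Insig1, Dhcr7 and Hmgcs1 calls also ended without single libraries, and the Insig1 value was 0.189 without M90 a (adjusted p 0.102).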

How the results depend on the processing

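Of 155 calls of single genes over the 10 contrasts, RLE scaling kept 152, limma-voom 154, DESeq2 152, no filter on low counts 149 and the stricter filter 152, and these changed no direction. Fits of the contrast's groups alone kept 122 and ended 4; contrasts over all groups were not refitted so. The replicate block kept 154 and ended 1, Lss in M90 minus H90 (0.153, adjusted p 0.0501), and changed no other call. Letters share only a number here. Library size as the only scaling moved the median of all genes by -0.264 in M10, -0.13 in H10 and -0.151 in M90 against vehicle, by -0.146 in the mean of the pools, by 0.113 in M90 minus M10, by -0.134 in M10 minus H10 and by -0.114 in M90 minus H90. Under it 25 calls ended, and Fdps in M10 (-0.034) and Sqle in M90 (-0.04) reversed. Counts moved to 7 higher and 12 lower in M10, 7 higher in H90 minus H10, 8 higher and 5 lower in M90 minus M10, 10 lower in M10 minus H10, and 3 higher and 7 lower in M90 minus H90. The library set term ended 45 calls. It gave 2 higher and 2 lower in H90, 7 higher and 3 lower in M90, 4 lower in the mean of the pools, 0 higher and 2 lower in M10 minus H10, and 0 lower in the interaction; the cause was not tested. Leaving out 1 library at a time ended 33 calls at least once. The lower count in M90 minus M10 then ran from 6 (without M90 c) to 10, and the higher count in the interaction from 3 (without M90 b) to 8, while the other counts stayed within 1.5 times. The lowest raw count was 292, for Ggps1, whose log2 change in H10 minus vehicle had an SE of 0.115, against 0.0386 for Hmgcs1.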
